A study of Mus musculus with 4 samples.

Results

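A set of 9 genes that mark the trophoblast of the mouse placenta, none of them from the prolactin family, were followed by symbol through 4 RNA-seq libraries. All 9 of 9 symbols (Tpbpa, Tpbpb, Hand1, Gjb2, Tfap2c, Elf5, Esx1, Plac1 and Gcm1) were found among the 21993 genes of each library. Each library is labelled as NK cells of the uterus, sorted as CD45+ and NK1.1+ cells without CD3, from pregnant females at gd11.5 that had been mated with B6 males. In 2 libraries the females carried Ncr1Cre, a Cre recombinase under the NK-cell gene Ncr1, which is also active in other innate lymphocytes that make NKp46. The 2 control libraries came from females without Cre, and females of both genotypes carried the same floxed (f/f) allele. The labels give no genotype for the conceptuses and do not say whether the replicates are different animals. The p-values therefore set each difference against a spread between replicates that may be only technical.

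Trophoblast is a part of the placenta that comes from the conceptus and not from the mother. In the mouse, stem cells of the extraembryonic ectoderm and ectoplacental cone give rise to giant cells, which border the decidua, to the spongiotrophoblast of the junctional zone, and to the syncytial layers of the labyrinth, where maternal and fetal blood exchange solutes. Uterine NK cells lie in the maternal decidua close to these layers, but they are lymphocytes of maternal bone marrow descent. Several of the 9 genes are not restricted to trophoblast: Gjb2, Tfap2c and Elf5 are also used by epithelia, and Hand1 by mesoderm.

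The closely related genes Tpbpa and Tpbpb lie 37.1 kb apart at their annotated starts on chromosome 13 (GRCm38.p6), both on the minus strand. The sequences before their starts are shown because both genes had far higher levels than the other members. How well reads can be told apart depends on the transcripts and not on these windows, so the transcripts were compared as well. The 250 bases before each start come from RefSeq, with chr13:60941937-60942186 for Tpbpa and chr13:60904848-60905097 for Tpbpb. They are written 5′ to 3′ on the minus strand, and capitals mark the bases that differ between the 2 windows.
Tpbpa: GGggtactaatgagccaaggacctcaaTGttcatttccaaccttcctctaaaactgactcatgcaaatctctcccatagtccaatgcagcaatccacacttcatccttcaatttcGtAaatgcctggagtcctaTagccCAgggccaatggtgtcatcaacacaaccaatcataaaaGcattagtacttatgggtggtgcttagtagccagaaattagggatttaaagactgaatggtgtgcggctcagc
Tpbpb: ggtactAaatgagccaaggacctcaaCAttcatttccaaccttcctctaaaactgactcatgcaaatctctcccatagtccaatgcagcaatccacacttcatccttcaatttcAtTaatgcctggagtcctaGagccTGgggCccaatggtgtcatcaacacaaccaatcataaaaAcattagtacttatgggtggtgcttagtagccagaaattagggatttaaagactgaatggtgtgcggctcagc
Of 248 aligned bases, 240 were identical (96.8%), 8 were mismatched, and 2 bases of each window had no partner. Of all 50-base windows in the GENCODE transcripts, 1.75% of those of Tpbpa were also found in Tpbpb and 2.89% of those of Tpbpb in Tpbpa, and no 100-base window was shared (0 of 2226 in Tpbpa and 0 of 1314 in Tpbpb).

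A further window is shown for Gjb2, the tested member with the largest fold change, and there capitals mark the letters GCCNNNGGC, a palindromic recognition sequence of AP-2 factors, to which the member Tfap2c belongs. It covers chr14:57104703-57104952 (GRCm38.p6, minus strand).
Gjb2: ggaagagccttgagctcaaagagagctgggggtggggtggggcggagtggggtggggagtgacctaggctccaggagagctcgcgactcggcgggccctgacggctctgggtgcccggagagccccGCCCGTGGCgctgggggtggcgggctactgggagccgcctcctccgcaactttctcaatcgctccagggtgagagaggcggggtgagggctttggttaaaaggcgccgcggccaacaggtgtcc
The RefSeq table gave 9 windows for 7 of the members. GCCNNNGGC was found once in Gjb2 (GCCCGTGGC), once in Tpbpa (GCCCAGGGC, beginning 114 bases before the start) and once in Tpbpb (GCCTGGGGC, 115 bases before it), and in no window of Elf5, Esx1, Plac1 or Gcm1. Of all 32851 windows of this length, 13.7% held it. Searched on both strands, the GCM letters ATGCGGGT and the letters CATCTG, bound by HAND factors with a partner, were in none of the 9 windows, against 0.207% and 14.4% of all windows. The ETS core GGAA was in all 9 and in 93.5% of all windows. These are matches of letters only.

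The genes that define the sort were low, at no more than 5.16 FPKM in any library. Klrb1c, which encodes NK1.1, was at 0.924 and 0.673 FPKM in Ncr1Cre libraries and at 0.449 and 0.973 FPKM in control libraries, and Ncr1 was listed at 0 and at 0.152 FPKM against 0.136 and 0.359 FPKM. Ptprc, which encodes CD45, was at 4.39 and 5.16 FPKM against 2.89 and 2.57 FPKM. Cd3e, a gene of CD3, was at 0.0796 and 0.134 FPKM in Ncr1Cre libraries and listed at 0 in both control libraries. The granzyme gene Gzmb, at 9.39 and 8.84 FPKM against 5.06 and 5.03 FPKM, and the interleukin receptor gene Il2rb, at 9.17 and 8.67 FPKM against 6.497 and 6.54 FPKM, stood highest in the NK list and above the members Hand1 and Tfap2c. Levels are in FPKM, that is, fragments counted on a transcript divided by its length and by the depth of the library, which can be compared between genes because it is per length. Tpbpa was above every gene of the NK list, so the RNA is called here by its library and not by that cell type. The 14 genes of the NK list summed to 44.0 and 43.9 FPKM in Ncr1Cre libraries and to 29.0 and 29.2 FPKM in control libraries, with none at 0 in all libraries. The 22 uterine epithelial genes summed to 51709 and 55023 FPKM against 10534 and 10674 FPKM. Most of that sum was the single gene Prap1, named after its values were seen, at 46369 and 49335 FPKM against 9529.8 and 9667 FPKM. The 16 decidual stromal genes summed to 11690.1 and 11769.8 FPKM against 23779.6 and 24392 FPKM. In both lists none was at 0 in all libraries. The estimated depth was such that 1 fragment on 1 kb of transcript stood for 0.0384 and 0.0441 FPKM in Ncr1Cre libraries and for 0.0259 and 0.0477 FPKM in control libraries.

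Of the 9 trophoblast genes, 5 were abundant enough to be tested and each was higher with Ncr1Cre, by 2.39-fold to 6.09-fold in mean FPKM. The test was limma on log2(FPKM + 1) over the 11762 genes whose mean over the libraries reached 1 FPKM, and calls are at a Benjamini-Hochberg adjusted p under 0.05 over all of them. Tpbpa, Tpbpb, Hand1, Gjb2 and Tfap2c reached that mean, and 5 of 5 rose, while 30.9% of all tested genes were called higher and 17.6% lower, 48.5% in either direction. None of the 5 overlapped between the genotypes, and 46.4% of all tested genes had both Ncr1Cre libraries above both control libraries. The means of these 5 were above 1 FPKM in control as well. Elf5, Esx1 and Plac1 stood below the filter and Gcm1 was listed at 0 in all libraries. The median log2 fold change was 1.64 over the 5 members and 0.11 over all tested genes. In bulk RNA, fewer cells of a type and less RNA per cell cannot be told apart, and neither can their opposites. The balance of calls over all genes depended on scaling, with 3638 higher and 2071 lower in the values as deposited. With libraries rescaled to 1 median these were 2923 and 2718, and with quantile normalization 2615 and 3032, but the 5 members were called higher under each.

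**Figure D1:**
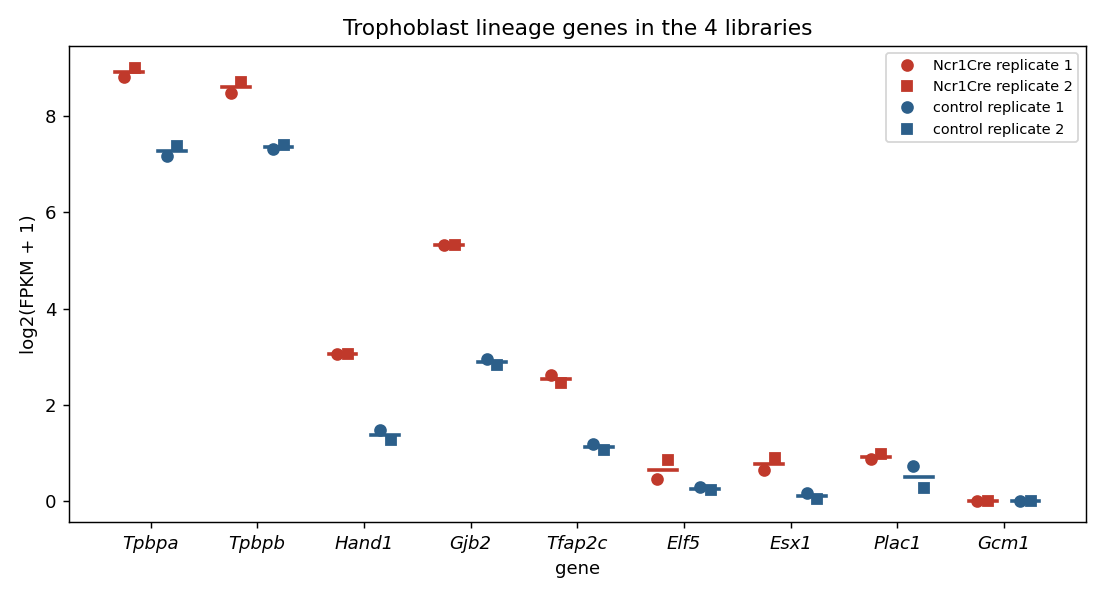
Level of each gene as log2(FPKM + 1) in the 4 libraries, with Ncr1Cre libraries in red on the left of each pair and control libraries in blue on the right (circle, replicate 1; square, replicate 2; bar, mean of the 2 libraries). Both Ncr1Cre points lie above both control points for every gene but Gcm1, which is listed at 0 throughout.

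Spongiotrophoblast genes came first in level. Tpbpa (ENSMUSG00000033834), trophoblast specific protein alpha, is the usual marker of the ectoplacental cone and spongiotrophoblast. It stood at 452 and 517 FPKM in Ncr1Cre libraries and at 143 and 167 FPKM in control libraries. Its lowest Ncr1Cre value was well above its highest control value, and the spread within each genotype was small beside that gap. The means were 485 ± 45.7 and 155 ± 17.0 FPKM (SD, n = 2 each), a 3.13-fold difference in mean FPKM, with a log2 fold change of 1.64 (SE 0.11, 95% interval 1.36 to 1.92, limma adjusted p = 0.000468).

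Its neighbour Tpbpb (ENSMUSG00000062705), which encodes a related protein of the same trophoblast layer, had 360.3 and 419.6 FPKM in Ncr1Cre libraries against 159 and 168 FPKM in control libraries. The genotypes again did not overlap, and replicate 2 was the higher library in both, as for Tpbpa. The log2 fold change of 1.25 (SE 0.093, interval 1.01 to 1.48, limma adjusted p = 0.000631) corresponds to 2.39-fold in mean FPKM. Together Tpbpa and Tpbpb made up 93.9% and 94.6% of the summed FPKM of the 9 genes in Ncr1Cre libraries, and 96.6% and 97.4% in control libraries. That sum was 866 and 990.03 FPKM against 313 and 344 FPKM.

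The giant-cell gene Hand1 (ENSMUSG00000037335, chromosome 11) encodes a basic helix-loop-helix factor that trophoblast needs to become giant cells. It had 7.33 and 7.31 FPKM in Ncr1Cre libraries and 1.78 and 1.39 FPKM in control libraries. The 2 Ncr1Cre libraries were nearly equal, and the control libraries differed more from each other but stayed far below. Its log2 fold change was 1.69 (SE 0.12, interval 1.39 to 1.99, limma adjusted p = 0.000507), and its means were 4.61-fold apart.

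Gjb2 (ENSMUSG00000046352, chromosome 14) encodes connexin 26, the gap-junction protein through which glucose passes between the syncytial layers of the mouse labyrinth. It is also a connexin of uterine epithelium. It had 38.9 and 39.0 FPKM in Ncr1Cre libraries against 6.75 and 6.04 FPKM in control libraries. No other tested member had a larger change, at 6.09-fold in mean FPKM and 2.44 on the log2 scale (SE 0.085, interval 2.22 to 2.65, limma adjusted p = 0.000149). Of all tested genes, 99.4% had a lower log2 fold change than Gjb2, 96.9% a lower one than Hand1, 96.6% than Tpbpa, 95.0% than Tfap2c and 93.3% than Tpbpb.

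Tfap2c (ENSMUSG00000028640, chromosome 2) encodes AP-2 gamma, a factor that maintains trophoblast stem cells and acts in many epithelia. Its values were 5.13 and 4.47 FPKM in Ncr1Cre libraries against 1.26 and 1.09 FPKM in control libraries. Here replicate 1 was the higher library in both genotypes, unlike for Tpbpa and Tpbpb, and the genotypes did not overlap. The log2 fold change was 1.42 (SE 0.12, interval 1.12 to 1.71, limma adjusted p = 0.000807) and the fold of mean FPKM 4.09. At levels this low the pseudocount of 1 holds the log2 value down, so that Tfap2c lies below Tpbpa on that scale although its fold of mean FPKM is larger.

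**Figure D2:**
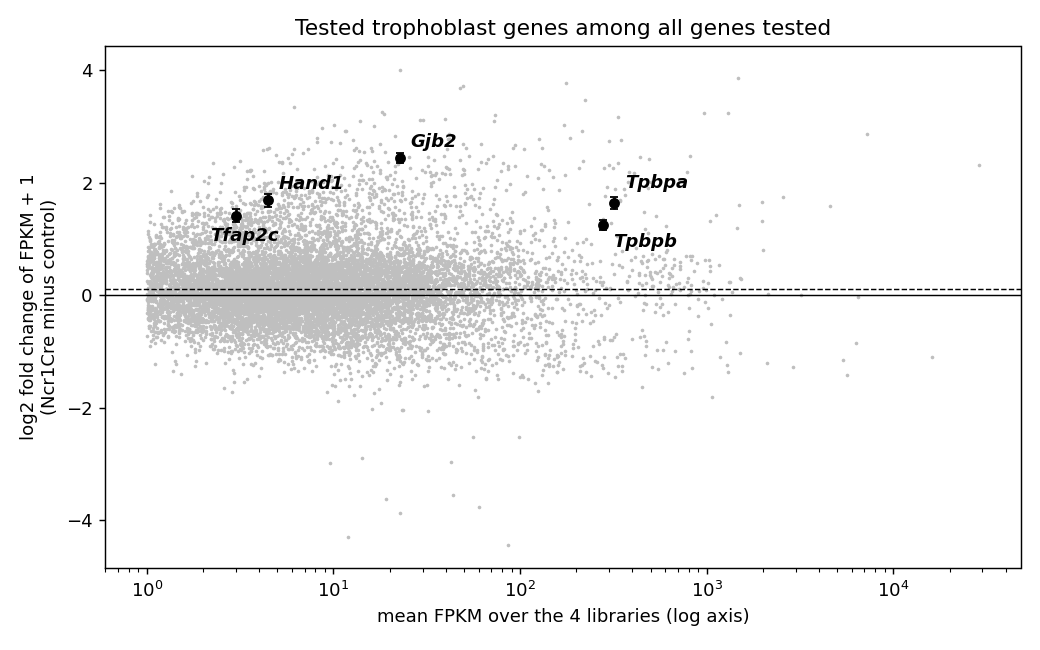
Log2 fold change of FPKM + 1 (Ncr1Cre minus control) against mean FPKM over the 4 libraries on a log axis, for all 11762 tested genes (grey) and the 5 tested members (black, bars show 1 SE). The dashed line is the median of all tested genes at 0.11, and the members lie between 1.25 and 2.44.

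The remaining members were low or not detected. Elf5 (ENSMUSG00000027186, chromosome 2) encodes an ETS factor that marks the trophoblast stem-cell fate and also acts in secretory epithelia, and it had 0.361 and 0.795 FPKM in Ncr1Cre libraries against 0.211 and 0.170 FPKM in control libraries. Esx1 (ENSMUSG00000023443, X chromosome), a homeobox gene of the labyrinth and spongiotrophoblast, had 0.563 and 0.862 FPKM against 0.122 and 0.0282 FPKM. Plac1 (ENSMUSG00000061082, X chromosome), a placenta-specific gene needed for normal placental growth, had 0.811 and 0.967 FPKM against 0.636 and 0.199 FPKM. For each of the 3 genes both Ncr1Cre libraries lay above both control libraries, and this held for 33.1% of all genes with a mean under 1 FPKM that were above 0 in any library. Taking the longest annotated transcript, the lowest values stand for an estimated 11.6 fragments of Elf5, 1.0 fragment of Esx1 and 5.0 fragments of Plac1, all in replicate 2 of the control. With no filter on the mean, limma called Esx1 higher (log2 fold change 0.67, SE 0.11, adjusted p = 0.0138) and did not call Elf5 (0.39, SE 0.14, adjusted p = 0.110) or Plac1 (0.43, SE 0.17, adjusted p = 0.127), in a fit that called 22.6% of its genes higher. Gcm1 (ENSMUSG00000023333, chromosome 9), which encodes the factor that starts syncytiotrophoblast formation, was listed at 0 in all 4 libraries, which a failed estimate would give as well.

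The order of levels differed between the genotypes at the top and at the bottom. In the Ncr1Cre libraries the order of mean FPKM was Tpbpa, Tpbpb, Gjb2, Hand1, Tfap2c, Plac1, Esx1, Elf5 and Gcm1, and the neighbours whose libraries overlapped were Plac1 with Esx1 and Esx1 with Elf5. In the control libraries Tpbpb (163 ± 6.14 FPKM) stood beside Tpbpa (155 ± 17.0 FPKM) with overlapping values, and Elf5 (0.190 ± 0.029 FPKM) stood above Esx1 (0.075 ± 0.066 FPKM) without overlap. Plac1 overlapped Elf5 there.

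The levels were also set against Tpbpa. Within a library, Tpbpb stood at 79.7% and 81.2% of Tpbpa in Ncr1Cre libraries and at 111% and 101% in control libraries. Gjb2 stood at 8.61% and 7.54% of Tpbpa against 4.73% and 3.62%, and Hand1 at 1.62% and 1.41% against 1.25% and 0.835%. These 3 ratios did not overlap between the genotypes, with Tpbpb lower and Gjb2 and Hand1 higher relative to Tpbpa in Ncr1Cre, but the same was true, in either direction, of 94.3% of all other tested genes. The ratio of Tfap2c overlapped, at 1.14% and 0.865% against 0.880% and 0.653%. On the log2 scale the ratios differed by -0.40 for Tpbpb, 0.57 for Hand1, 0.96 for Gjb2 and 0.39 for Tfap2c. For Hand1 this was 0.86 without replicate 1 and 0.28 without replicate 2 of the control. For Tfap2c it was 0.60 and 0.17 without these, 0.19 without replicate 1 of Ncr1Cre and 0.58 without replicate 2 of Ncr1Cre. With a pseudocount of 1 on both genes the values were 0.048 for Hand1 and -0.23 for Tfap2c, the opposite direction. An exact two-sided permutation test of 2 against 2 libraries gave p = 0.33 for the first 3 and p = 0.667 for Tfap2c over 4 such tests, and 0.33 is the smallest p this design allows, so none could pass. A ratio within a library does not change with the scaling of that library.

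**Figure D3:**
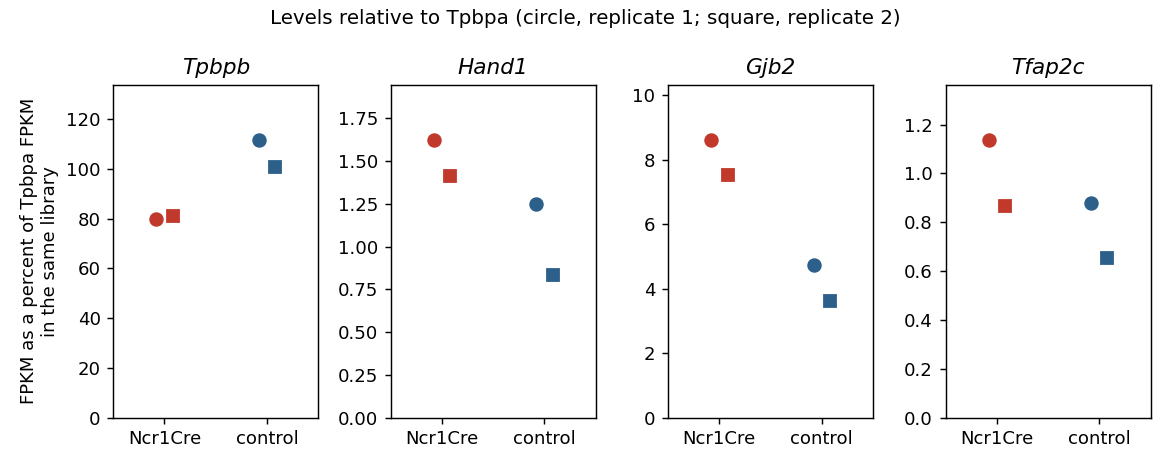
FPKM of Tpbpb, Hand1, Gjb2 and Tfap2c as a percent of Tpbpa FPKM in the same library, with Ncr1Cre (red) left of control (blue), circles for replicate 1 and squares for replicate 2, on axes that start at 0. Tpbpb is at 79.7% and 81.2% in Ncr1Cre and at 111% and 101% in control, and Gjb2 at 8.61% and 7.54% against 4.73% and 3.62%.

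Other genes of the same trophoblast layers, and then of other tissues, were read from fixed lists. Unless stated otherwise, the genes named are the up to 4 of a list with the smallest p, so their small p follows from that choice. Of all tested genes, 30.9% were called higher and 17.6% lower. Of 11135 averaging at least 1 FPKM in each genotype, 3275 were higher and 1988 lower. With a mean of at least 5 FPKM, 2536 of 7516 were higher and 1501 lower. Of 25 further spongiotrophoblast and glycogen-cell genes, 22 were tested, 15 rose and 0 fell (median log2 fold change 0.82, against 0.11 over all genes), and 14 of the 20 averaging at least 1 FPKM in each genotype rose. Ceacam14 and Ceacam12, members of a rodent trophoblast family of the carcinoembryonic antigen group, were at 101 and 116 FPKM against 36.7 and 41.9 FPKM, and at 98.0 and 97.0 FPKM against 45.0 and 49.1 FPKM. Ceacam11 was at 194 and 206 FPKM against 98.8 and 105 FPKM, and Sct, the secretin gene, at 66.9 and 66.6 FPKM against 9.58 and 12.9 FPKM. These 4, taken for the smallest p in the list, rose (limma adjusted p between 0.000333 and 0.000610). Sct was at 5.94-fold and the Ceacam genes at 1.96-fold to 2.76-fold in mean FPKM. Not every abundant gene of this layer moved: Psg16, a pregnancy-specific glycoprotein gene named after its values were seen, had 127 and 139 FPKM against 131 and 144 FPKM (limma adjusted p = 0.671). The value of each single Psg or Ceacam gene is uncertain, since reads of 1 copy can match another. Gjb5 and Pcdh12, also named after their values were seen, had both Ncr1Cre libraries below both control libraries. Their log2 fold changes were -0.44 and -0.28, and neither was called (limma adjusted p = 0.0783 and 0.0912). Cts7 and Cts8, placental cathepsins, were listed at 0 in every library. With libraries rescaled to 1 median, 13 of the 22 rose and 1 fell, and with quantile normalization 12 rose and 2 fell.

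Of 15 giant-cell genes, 13 were tested, 10 rose and 0 fell (median 1.26), and 9 of the 12 averaging at least 1 FPKM in each genotype rose. Cyp11a1, the side-chain cleavage enzyme that starts steroid synthesis, had 14.1 and 12.5 FPKM against 1.37 and 1.32 FPKM, a 9.84-fold difference. Ctsj, a cathepsin of the placental cluster, had 24.8 and 27.4 FPKM against 6.06 and 6.76 FPKM. Adm, which encodes the vasodilator adrenomedullin, had 169.5 and 175 FPKM against 66.5 and 66.2 FPKM, and Lifr, the receptor of leukaemia inhibitory factor, 53.2 and 49.0 FPKM against 10.4 and 10.5 FPKM. These 4, taken for the smallest p in the list, rose (limma adjusted p between 0.000153 and 0.000283), but Lifr and Adm are used widely outside trophoblast.

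Of 20 stem-cell and ectoplacental-cone genes, 9 were tested, of which 7 rose and 2 fell (median 1.22). Over all tested genes 30.9% rose and 17.6% fell, so 2 falls among 9 genes are near that share. Plet1, a surface protein of the ectoplacental cone and of epithelia, had 136 and 147 FPKM against 34.2 and 36.4 FPKM. Fgfr2, the receptor through which FGF4 keeps trophoblast stem cells dividing, had 32.7 and 31.1 FPKM against 8.38 and 7.66 FPKM, and Ets2, an ETS factor of that pathway, 102 and 100.5 FPKM against 43.2 and 42.4 FPKM. Rhox9, a homeobox gene of a cluster on the X chromosome, had 16.2 and 16.8 FPKM against 4.65 and 4.94 FPKM. These 4, taken for the smallest p in the list, rose (limma adjusted p between 0.000178 and 0.000292). Gata2, a transcription factor of trophoblast and of decidua, and Cdh3, P-cadherin, fell by 0.54 and by 0.29 on the log2 scale (limma adjusted p = 0.0121 and 0.0473). Both were named after their values were seen. Leaving out replicate 1 of the control removed both falls, and 1 fall was left on leaving out any other library, with the replicate number as a block and with no filter. Rhox4b was listed at 0 in every library. Cdx2, Eomes, Esrrb and Sox2 of this list, named after their values were seen, stood below the filter. Cdx2 had 0.732 and 0.734 FPKM against 0.0625 and 0.0844 FPKM. Eomes, which is also in the NK list, had 0.865 and 0.881 FPKM against 0.528 and 0.409 FPKM. Esrrb had 0.00918 and 0 FPKM and Sox2 0 and 0.018 FPKM in Ncr1Cre libraries, and both were at 0 in control libraries.

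Of 22 syncytial and labyrinth genes, 16 were tested, of which 10 rose and 3 fell (median 0.74). Over all tested genes 30.9% rose and 17.6% fell, so 3 falls among 16 genes are near that share. Among those averaging at least 1 FPKM in each genotype 8 rose and 3 fell (median 0.59), and with a mean of at least 5 FPKM 5 of 9 rose and 2 fell (median 1.11). Spint1, a membrane protease inhibitor needed in the labyrinth, had 99.1 and 98.0 FPKM against 19.9 and 20.3 FPKM. Epcam, a marker of labyrinth progenitors that the epithelial list also holds, had 122 and 121 FPKM against 27.7 and 29.4 FPKM, and the glucose transporter Slc2a1 64.3 and 63.7 FPKM against 21.1 and 19.8 FPKM. Itgb4, an integrin of epithelial basement membranes, had 29.7 and 24.2 FPKM against 8.67 and 7.94 FPKM. These 4, taken for the smallest p in the list, rose (limma adjusted p between 0.000126 and 0.000680). Among genes of cell fusion, Ly6e, which encodes the receptor of syncytin-A, had 630.1 and 699 FPKM against 285 and 331 FPKM and rose (limma log2 fold change 1.11). Synb, which encodes the fusion protein syncytin-B, was listed at 0 in every library, which a failed estimate would give as well, and Syna, which encodes syncytin-A, at 0.276 and 0.216 FPKM against 0.0845 and 0.115 FPKM. These 3 were named after their values were seen. The lactate transporter Slc16a1, the retinoid receptor Rxra and the growth factor Hgf fell by 0.29, 0.50 and 0.52 on the log2 scale (limma adjusted p = 0.0324, 0.0204 and 0.0247). These 3 were named after their values were seen, and the number of falls was 0 without replicate 2 of Ncr1Cre and 1 without replicate 1 of the control.

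Of 22 placental prolactin-family genes, which mark giant cells and spongiotrophoblast, 15 were tested, 14 rose and 0 fell (median 1.35, or 13 of 14 among those averaging at least 1 FPKM in each genotype), and the 22 summed to 1033 and 1127 FPKM against 353 and 408 FPKM, with Prl3d2 and Prl3d3 listed at 0 throughout. Prl7a2, Prl6a1, Prl7d1 and Prl2b1, hormone genes of these layers, were 5.41-fold, 12.8-fold, 4.95-fold and 4.87-fold higher in mean FPKM. Uterine epithelial genes also moved in the direction of the 5 tested members. Of 21 tested, 19 rose and 0 fell (median 2.01), and among them Elf3, an epithelial ETS factor, had 157 and 158 FPKM against 24.3 and 25.2 FPKM. Gjb2, at 2.44, was above that median and Tfap2c, at 1.42, below it. Krt18, an epithelial and trophoblast keratin, Ltf, the gene of the uterine secretion lactoferrin, and Lcn2, the gene of lipocalin-2, had means of 523, 739 and 2354 FPKM in Ncr1Cre and of 108, 134 and 249 FPKM in control. The part of epithelium in the values of Gjb2, Tfap2c and Elf5 was not tested.

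Markers of the conceptus other than trophoblast were mixed or low. Of 12 yolk sac endoderm genes, 7 were tested, of which 5 rose and 2 fell (median 1.41), beside 30.9% and 17.6% of all tested genes. The sums of the 12 were 97.8 and 98.2 FPKM against 62.3 and 66.8 FPKM. The count leans on low genes: among those averaging at least 1 FPKM in each genotype 3 rose and 2 fell (median 1.13), and of those averaging 5 FPKM or more across libraries 2 rose and 2 fell (median 0.33). Afp, the alpha-fetoprotein gene of yolk sac and fetal liver, had 17.9 and 19.5 FPKM against 1.5 and 1.35 FPKM, and Rbp4, the retinol carrier, was 2.27-fold higher. The transferrin gene Trf and the endocytic adaptor gene Dab2, named after their values were seen, fell by 0.47 and by 0.63 on the log2 scale. Amn, an endoderm membrane protein, had 6.87 and 6.12 FPKM against 0.752 and 0.466 FPKM, and Apoa4, an apolipoprotein, 2.30 and 2.84 FPKM against 0.215 and 0.209 FPKM. Both passed the filter through Ncr1Cre alone, so their means had to be higher there, although this does not fix whether they are called. The same holds for Hbb-y and Hba-x, globins of the first red cells and the only ones of 6 embryonic erythroid genes that passed, and their values are given as a description. Hbb-y had 10.8 and 13.1 FPKM against 0.177 and 0.361 FPKM, and Hba-x 3.46 and 3.46 FPKM against 0 and 0.0596 FPKM. The 6 genes summed to 16.0 and 17.9 FPKM against 0.808 and 0.747 FPKM. None of the yolk sac or erythroid genes was at 0 in all libraries. How far the amount of conceptus tissue in a library sets the values of the 9 genes was not tested.

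Maternal stroma moved the other way. Of 15 tested decidual stromal genes, 12 fell and 2 rose (median -0.80), beside 17.6% and 30.9% of all tested genes. Pdgfra, a fibroblast receptor, was at 39.0 and 40.4 FPKM against 113 and 114 FPKM. The collagens Col3a1 and Col1a2 fell by 1.27 and by 1.16 on the log2 scale, whereas Prl8a2, a prolactin-family gene of the decidua, rose by 2.36. Cryab, the other gene that rose, was named after its values were seen and had 158 and 117 FPKM against 62.7 and 60.0 FPKM. Of 7 tested NK and sort genes, 5 rose and 0 fell (median 0.45). Those with the smallest p, Gzmb, Prf1, Ptprc and Il2rb, had 1.81-fold, 2.07-fold, 1.75-fold and 1.37-fold differences in mean FPKM. Nkg7 and the granzyme gene Gzma, named after their values were seen, were not called (limma adjusted p = 0.189 and 0.738). Gzma had 3.69 and 2.53 FPKM against 2.96 and 3.65 FPKM. The number of NK genes called higher dropped to 3 of 7 under quantile normalization to 2 of 7 without replicate 2 of the control, and to 3 of 7 without replicate 1 of either genotype.

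**Figure D4:**
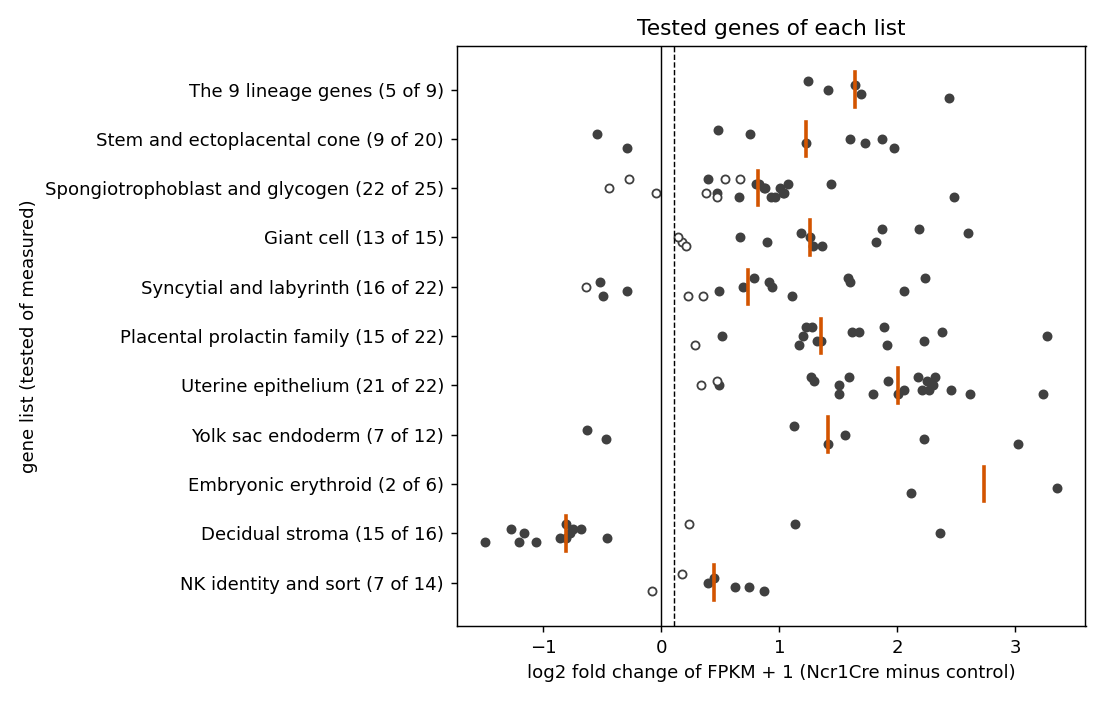
Log2 fold change of FPKM + 1 (Ncr1Cre minus control) of each tested gene, by list, with filled points for genes at an adjusted p under 0.05, open points for the others, an orange bar at the list's median and a dashed line at the median of all tested genes (0.11). The 9 lineage genes (5 tested) have a median of 1.64, the placental prolactin family 1.35, uterine epithelium 2.01 and decidual stroma -0.80.

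Genes with the profile most like that of a member over the 4 libraries were found by the root-mean-square distance between profiles of log2(FPKM + 1), each centred on its own mean, among 7513 other genes averaging 5 FPKM or more. For Tpbpa these were Rbp2, a cellular retinol-binding protein gene (distance 0.0082), mt-Cytb (0.030) and Sprr2f (0.032), and Rbp2 stood at 19.8 and 22.4 FPKM against 5.54 and 6.70 FPKM. For Tpbpb they were mt-Nd3 (0.029), Actb (0.032) and Fabp5 (0.034), and for Hand1 Pcsk6 (0.023), Bspry (0.026) and Tmem30b (0.034). For Gjb2 they were the genes of the membrane serine proteases St14 (0.030) and Tmprss4 (0.042) and Padi1 (0.036), and for Tfap2c Cdkn1c (0.020), Ldhd (0.023) and Nptx1 (0.028). Copies of mitochondrial genes and of Actb elsewhere in the genome make those values uncertain.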

How the data were processed

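RNA was sequenced from 4 libraries, 2 per genotype, which the labels describe as sorted uterine NK cells. The gene of the floxed allele and results that need it are not reported here. The values are FPKM per gene as deposited by the authors. They were made with Cufflinks on mm9 per the submitters' processing notes, and the sources used here do not give its version, the aligner, the annotation or the handling of reads with several matches. Estimates can fail: Gapdh, a gene of all cells, was listed at 2.25 and 13.3 FPKM in Ncr1Cre and at 4.49 and 0 FPKM in control. A total of 21750 of 21993 identifiers were in the reference gene table, and 27 symbols that had been turned into dates were restored. Promoter windows (RefSeq, GRCm38.p6) and transcripts (GENCODE M21) are of another build than the values, and Stra13 was left out because its identifier is that of another gene.

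Depth was estimated as the total that turned most low values of single-transcript genes into whole fragments within 0.02. Between 38.8% and 41.2% came out whole, against 4% by chance, which is too few for a count test. Genotypes were compared with limma 3.58.1 (R 4.3.3), using an intensity trend on log2(FPKM + 1), two-sided, on genes whose mean over the libraries reached 1 FPKM, with Benjamini-Hochberg adjustment over all of them. It was tested on simulated data in which far fewer genes changed than were called here. Fold changes on this scale understate those of low genes. The members and lists were chosen with earlier results of these data known. Named were the 9 members, up to 4 tested genes per list with the smallest p, the sort genes, and 3 genes of like profile per tested member. The correlation over genes of the replicate differences of the genotypes was 0.16 and the labels share only a number, so the samples were not paired.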

Additional observations from a re-analysis of the deposited data

How the results depend on the processing

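Tpbpa, Tpbpb, Hand1, Gjb2 and Tfap2c kept their direction and stayed below an adjusted p of 0.05 in limma under every alternative in which they were tested (a pseudocount of 0.1, no filter, median rescaling, quantile normalization, the replicate block and leaving out each library, and for Tpbpa, Tpbpb and Gjb2 a mean of at least 5 FPKM, which Hand1 and Tfap2c do not reach). Their adjusted p with the replicate number as a block lay between 0.000549 and 0.00227, and the block gave 6004 calls over all genes against 5709. With a pseudocount of 0.1 the log2 fold changes of the low members grew to 1.15 for Elf5, 2.24 for Esx1 and 1.07 for Plac1, which shows how far that scale sets them. Without replicate 2 of Ncr1Cre the log2 fold change of Elf5 was 0.19 on the main scale, and that of Plac1 was 0.21 without replicate 2 of the control. With a pseudocount of 1 the ratio to Tpbpa differed by 0.048 for Hand1 and turned to -0.23 for Tfap2c, because the pseudocount is large beside these levels. Leaving out 1 library gave 1354 to 1883 genes lower in Ncr1Cre, with 1354 without replicate 1 of the control, against 2071. The list counts under other settings were added after seeing the data. With no filter, which brings in genes near 0, the median log2 fold change was 0.42 for the stem-cell list, 0.44 for the syncytial list and 0.79 for the yolk sac list. With 2 libraries per genotype, the spread is borrowed across genes, and members below 1 FPKM rest on few fragments.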
